A study of Rattus norvegicus with 10 samples.

Results

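The neurofilament triplet and 7 further genes that mark neurons were followed in the trigeminal ganglion (TG), the sensory ganglion of the face and mouth, of rats with oral ulcerative mucositis (OUM). The genes were *Nefl*, *Nefm*, *Nefh*, *Prph*, *Tubb3*, *Stmn2*, *Uchl1*, *Elavl4*, *Thy1* and *Pvalb*, and every array probe whose accession maps to one of these 10 genes was taken. That gave 11 probes of the 30367 on the array, 2 of them for *Stmn2* and 1 for each other gene. Male Wistar rats of 8 weeks had filter paper with 50% acetic acid held against the mucosa below the lower incisors for 30 s and formed the OUM group (n = 5), and naive rats had anesthesia alone (n = 5). Whole TG was taken on day 2, so the RNA came from all neurons and non-neuronal cells of the ganglion, whether or not they serve the ulcerated mucosa. Each rat had 1 array with a single dye.

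Neurofilaments are the intermediate filaments of mature neurons. Light, medium and heavy chains assemble together, fill the axon and set its calibre, and they are abundant in the large myelinated neurons that carry touch and proprioception. Peripherin (*Prph*) is the related filament of peripheral neurons and is prominent in small unmyelinated ones. Neuronal tubulin and stathmin-2 belong to the microtubule system, and ubiquitin hydrolase, an RNA-binding protein and a surface glycoprotein serve as general neuron markers. After peripheral axon injury, sensory neurons are known to lower neurofilament transcripts while injury genes rise.

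No probe of the 10 genes differed between OUM and naive rats after adjustment. In limma with Benjamini-Hochberg adjustment over 21969 probes, 0 of the 11 probes passed an adjusted p of 0.05, and 0% of all probes did. The smallest adjusted p of the 11 was 0.54. At an unadjusted limma p under 0.05, 1 of the 11 probes was counted, the lower one of *Elavl4*, against 8.8% of all probes in either direction, 5.03% lower and 3.77% higher. OUM and naive rats were fully separated on 0 of the 11 probes, against 1.81% of all probes in either direction, 1.04% lower and 0.774% higher. The 95% intervals of the 11 fold changes together spanned 0.798 to 1.21, OUM over naive, so larger changes lay outside every interval. Fewer neurons and less RNA per neuron cannot be told apart in whole ganglion RNA.

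All 11 probes were well above background on 10 of 10 arrays. Each array had 0 to 1 saturated spots over all probes, and saturation was not checked by probe. Across arrays, 70.8 to 77.2% of probes were well above background, and the 75th percentile of the processed signal lay between 2617 and 2939. Values below are log2 processed signals minus the log2 of that percentile, so 1 unit is a doubling on the same probe. Levels of different probes are not comparable, because probes differ in how well they bind. The arrays came on a pair of slides, with 3 OUM and 4 naive arrays on slide 1, and 2 OUM and 1 naive array on slide 2. OUM array 1 stood apart from the other OUM arrays in these genes, and the difference is given with and without it.

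Promoter sequence is shown for a filament gene, a tubulin gene and a general neuron marker, 1 for each of these roles. Across the 10 rats *Prph* and *Uchl1* tracked each other (r = 0.92, rho = 0.96, adjusted permutation p = 0.0039 for r). *Tubb3* did not pass the threshold with *Prph* (r = 0.47, rho = 0.48, adjusted permutation p = 0.21 for r). Nor did it with *Uchl1* (r = 0.44, rho = 0.38, adjusted permutation p = 0.24 for r). The contrast did not hold within slide 1, where r was 0.92 for *Tubb3* with *Prph*. There it was 0.78 for *Tubb3* with *Uchl1* and 0.90 for *Prph* with *Uchl1*. A relation of these values to the promoters was not tested. RefSeq promoter windows (assembly GRCr8) were matched for 5 of the 10 genes, *Prph*, *Tubb3*, *Uchl1*, *Elavl4* and *Pvalb*. The 100 bases before the annotated start are printed 5′ to 3′ on the gene's strand, and capitals mark 3 motifs on either strand: the TATA box TATAAA, the CCAAT box and the GC box GGGCGG.
Prph, chr7:132097189-132097288, plus strand: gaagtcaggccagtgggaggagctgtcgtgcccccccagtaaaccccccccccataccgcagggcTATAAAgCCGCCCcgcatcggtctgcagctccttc
Tubb3, chr19:68365587-68365686, plus strand: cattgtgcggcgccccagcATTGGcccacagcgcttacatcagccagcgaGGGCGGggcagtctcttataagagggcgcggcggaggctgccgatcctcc
Uchl1, chr14:41849418-41849517, minus strand: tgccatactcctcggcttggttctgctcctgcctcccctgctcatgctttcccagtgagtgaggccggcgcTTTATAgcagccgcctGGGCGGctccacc

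TATAAA stood at positions -35 to -30 of *Prph*, counted from the annotated start. In *Uchl1* it stood on the opposite strand at -29 to -24. Over the 250 bases before the start, TATAAA was found in 2 of the 5 genes and in 12.9% of 33469 RefSeq windows of that length. GGGCGG was found in 4 of 5 genes and 30.5% of windows, CCAAT in 1 of 5 genes and 34.0% of windows, and the cAMP element TGACGTCA in 0 of 5 genes and 1.59% of windows. The motifs do not overlap in these 3 printed stretches. A match is a description of letters and no evidence of binding.

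*Nefl* encodes the light chain, without which the other chains do not form filaments. Its log2 signal was 5.74, 5.25, 5.48, 5.23 and 5.18 in OUM rats 1 to 5, against 5.45, 5.57, 5.52, 5.35 and 5.47 in naive rats 1 to 5. OUM rat 1 was above every naive rat and OUM rats 2, 4 and 5 were below every one, so the groups overlapped on both sides. The difference was -0.09 log2 units (SE 0.10, 95% interval -0.33 to 0.14, limma adjusted p = 0.82), and the two-sided exact permutation p over all assignments of the rats was 0.44. Leaving out 1 array at a time moved it between -0.19 without OUM array 1 (limma adjusted p = 0.36) and -0.04 without OUM array 5.

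The medium chain gene *Nefm* gave 7.26, 6.87, 7.11, 6.92 and 6.98 in OUM rats, against 7.03, 7.21, 7.05, 7.14 and 7.08 in naive rats. The pattern was that of *Nefl*, with OUM rat 1 highest of 10 and OUM rats 2, 4 and 5 lowest. Its log2 fold change was -0.07 (SE 0.08, 95% interval -0.24 to 0.10, limma adjusted p = 0.80, exact permutation p = 0.39), and it ran from -0.13 without OUM array 1 to -0.03 without OUM array 2. This probe was printed in 10 spots per array, of which at least 9 were kept, and the median SD over its spots was 0.044, against 0.16 over OUM rats and 0.073 over naive rats.

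*Nefh* encodes the heavy chain, whose long phosphorylated tail projects between filaments and is a marker of large myelinated neurons. Signals of 5.06, 4.58, 4.77, 4.73 and 4.53 were measured in OUM rats, against 4.80, 4.81, 5.01, 4.75 and 4.68 in naive rats. OUM rat 1 was again the highest, and OUM rats 2 and 5 were below all naive rats. The difference was -0.08 log2 units (SE 0.10, 95% interval -0.30 to 0.14, limma adjusted p = 0.85, exact permutation p = 0.50). Without OUM array 1 it was -0.16, and -0.03 without OUM array 5 or naive array 3.

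For *Prph* the signals were 5.66, 5.43, 5.49, 5.24 and 5.24 in OUM rats, against 5.43, 5.60, 5.58, 5.39 and 5.49 in naive rats. OUM rats 4 and 5, both on slide 2, were the lowest of the 10, and the naive rat of that slide, naive rat 4, was the lowest naive rat. A log2 fold change of -0.08 was estimated (SE 0.09, 95% interval -0.28 to 0.11, limma adjusted p = 0.80, exact permutation p = 0.39). Within slide 1 it was 0.0059, with slide as a block -0.04, without OUM array 1 -0.15 and without OUM array 4 -0.04. The estimates of the triplet were -0.09, -0.07 and -0.08, and their difference from that of *Prph* was not tested.

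**Figure D1:**
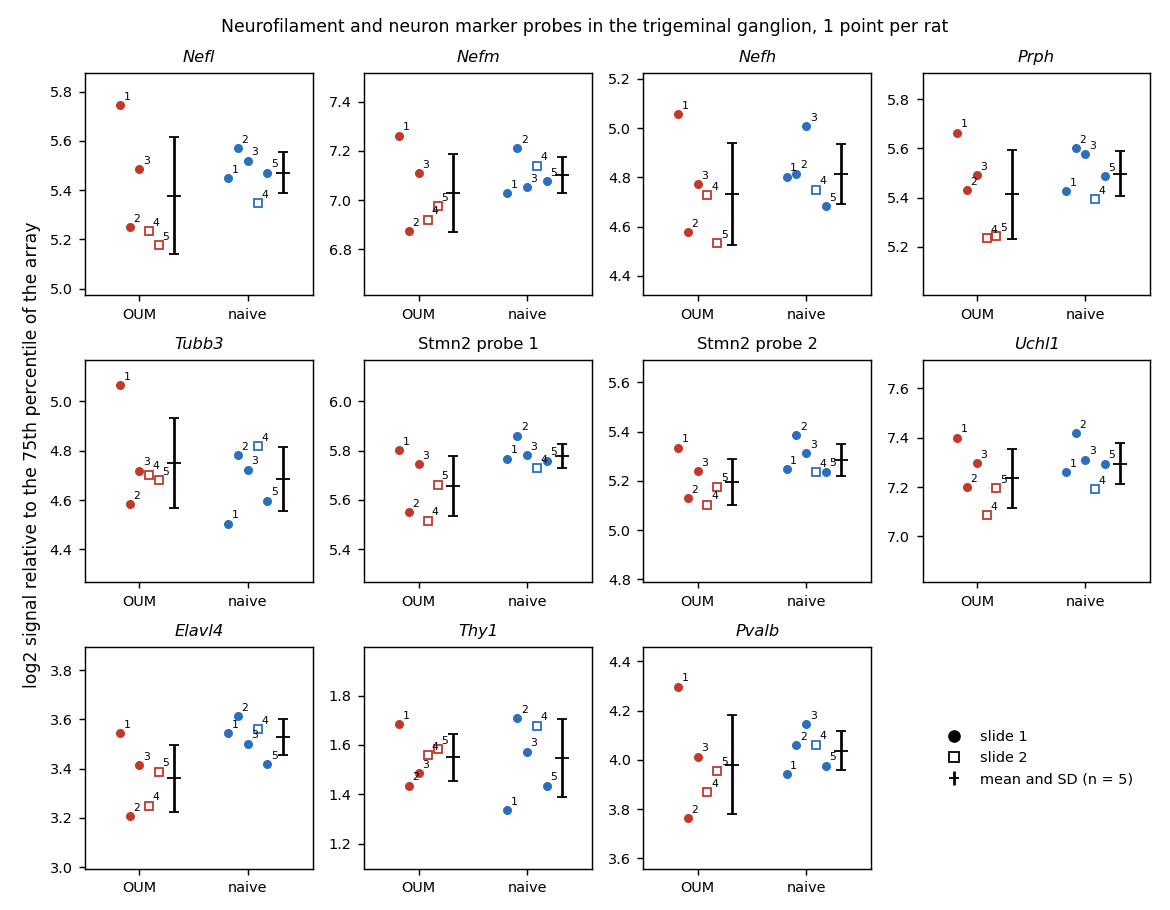
Log2 signal of each probe scaled to the 75th percentile of its array, for 5 OUM rats (red, left) and 5 naive rats (blue, right), numbered by rat, with filled circles for slide 1, open squares for slide 2 and bars for mean and SD. The groups overlap for all 11 probes, and OUM rat 1 is the highest OUM rat in each panel.

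*Tubb3*, the tubulin isotype of neurons, was one of the 2 probes with a positive estimate. OUM rats had 5.07, 4.58, 4.72, 4.70 and 4.68, against 4.50, 4.78, 4.72, 4.82 and 4.60 in naive rats. OUM rat 1 stood above all others, and the remaining OUM rats lay inside the naive range. The log2 fold change was 0.07 (SE 0.10, 95% interval -0.15 to 0.28, limma adjusted p = 0.87, exact permutation p = 0.60), and it ran from -0.01 without OUM array 1 to 0.11 without OUM array 2. Its direction thus rested on that array.

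*Stmn2* encodes stathmin-2, a tubulin-binding protein of growing and regenerating axons, and had 2 probes. The first gave 5.80, 5.55, 5.74, 5.52 and 5.66 in OUM rats, against 5.77, 5.86, 5.78, 5.73 and 5.76 in naive rats. The second gave 5.34, 5.13, 5.24, 5.10 and 5.18 in OUM rats, against 5.25, 5.38, 5.31, 5.23 and 5.24 in naive rats. On both probes OUM rats 2, 4 and 5 were below all naive rats and OUM rat 1 was inside their range. The log2 fold changes were -0.12 (SE 0.06, 95% interval -0.26 to 0.01, limma adjusted p = 0.59) and -0.09 (SE 0.06, 95% interval -0.21 to 0.04, limma adjusted p = 0.68). Exact permutation p-values were 0.087 and 0.13. Without OUM array 1 the differences were -0.16 and -0.12, and they came nearest to 0 at -0.09 without OUM array 4 for the first probe and -0.06 without naive array 2 for the second. The probes tracked each other across the 10 rats (r = 0.95, rho = 0.99).

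*Uchl1*, an abundant ubiquitin hydrolase of neurons also known as PGP9.5, had signals of 7.40, 7.20, 7.30, 7.09 and 7.20 in OUM rats, against 7.26, 7.42, 7.31, 7.19 and 7.29 in naive rats. Only OUM rat 4 was below every naive rat. Its estimate was a log2 fold change of -0.06 (SE 0.07, 95% interval -0.21 to 0.09, limma adjusted p = 0.81, exact permutation p = 0.38). It ran from -0.10 without OUM array 1 to -0.02 without OUM array 4.

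*Elavl4* encodes HuD, a neuronal RNA-binding protein that stabilises transcripts of axon growth. It gave 3.54, 3.21, 3.42, 3.25 and 3.39 in OUM rats, against 3.54, 3.61, 3.50, 3.56 and 3.42 in naive rats. OUM rats 2, 3, 4 and 5 were below every naive rat, OUM rat 3 only narrowly, and OUM rat 1 was within the naive range. The log2 fold change of -0.17 (SE 0.07, 95% interval -0.32 to -0.01) corresponded to a fold of 0.891 and had an unadjusted limma p of 0.036, an adjusted p of 0.54 and an exact permutation p of 0.048. It was the only one of the 11 intervals that did not span 0. Its unadjusted limma p was 0.050 with the percentile taken over probes in place of spots and 0.067 after quantile normalization. Leaving out OUM array 1 gave a log2 fold change of -0.21, and leaving out OUM array 2 gave -0.13.

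*Thy1* encodes a surface glycoprotein of neurons that thymocytes and some fibroblasts also carry. The signals were 1.68, 1.44, 1.49, 1.56 and 1.58 in OUM rats, against 1.34, 1.71, 1.57, 1.68 and 1.44 in naive rats. All OUM rats lay within the naive range. OUM over naive, the log2 fold change was 0.0032 (SE 0.08, 95% interval -0.18 to 0.18, limma adjusted p = 0.99, exact permutation p = 0.94), and it was the only probe whose SD was smaller in OUM rats, at 0.095, than in naive rats, at 0.16. Its estimate was -0.03 without OUM array 1, and ran from -0.05 without naive array 1 to 0.04 without naive array 2.

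*Pvalb* encodes parvalbumin, a calcium-binding protein of proprioceptive and some touch neurons that is also made by fast muscle. OUM rats had 4.30, 3.76, 4.01, 3.87 and 3.96, against 3.94, 4.06, 4.14, 4.06 and 3.98 in naive rats. OUM rat 1 was the highest of 10 and OUM rats 2 and 4 the lowest. The log2 fold change was -0.06 (SE 0.09, 95% interval -0.26 to 0.15, limma adjusted p = 0.89, exact permutation p = 0.59), and it ran from -0.14 without OUM array 1 to -0.0029 without OUM array 2. Summed skeletal muscle markers ranged from -0.75 to -0.21 in OUM rats and from -0.78 to -0.03 in naive rats, and their part in the *Pvalb* signal was not tested.

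**Figure D2:**
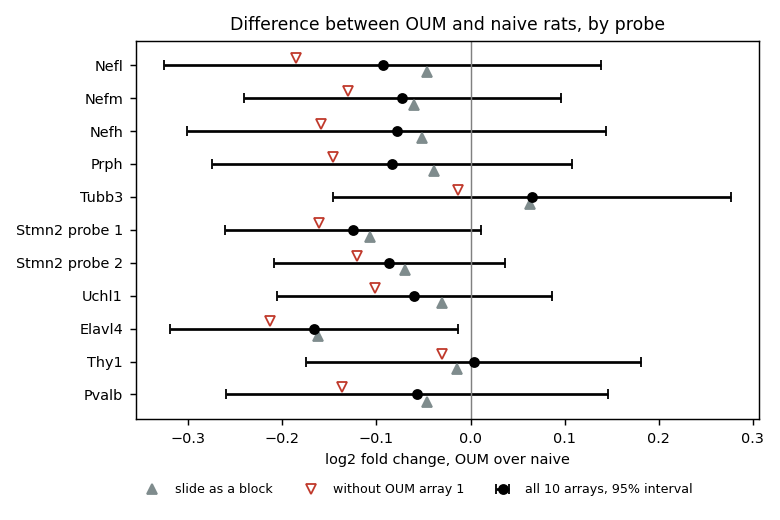
Log2 fold change, OUM over naive, of the 11 probes with the 95% limma interval over 10 arrays (black), the value with slide as a block (grey triangles) and the value without OUM array 1 (open red triangles). The interval of *Elavl4* alone stays below 0. Leaving out OUM array 1 moves all 11 values downwards, as it must, because that array is the highest OUM array for each probe.

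Estimates were negative for 9 of the 11 probes, against 55.2% of all probes tested, and their median was -0.08, against -0.01 for all probes. The 11 probes vary together from rat to rat, so they are not 11 separate observations of a direction. With slide as a block 10 of 11 were negative, with a median of -0.05, against -0.02 for all probes. Within slide 1 it was 8 of 11, with a median of -0.0095, which was above that of all probes, -0.04. Within slide 2, with its single naive array, it was 11 of 11, with a median of -0.14, against 0.03 for all probes. OUM array 1 was the highest OUM array for all 11 probes, so leaving it out must lower every estimate. It was singled out for these same genes, so the fit without it is a description. Without OUM array 1, the unadjusted limma p was under 0.05 for 4 probes, those of *Nefl*, *Stmn2* and *Elavl4*. In that fit 7.02% of all genes with a symbol were counted lower and 6.5% higher, and adjusted p-values of the 4 probes were 0.28 to 0.37. OUM array 1 had the lowest macrophage sum and, with naive array 1 and OUM array 2, the highest sums of pituitary markers (4.29 in OUM rat 1, 4.71 in OUM rat 2 and 4.43 in naive rat 1), and the part of either in its values was not tested.

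Spread between rats was larger in OUM rats for 10 of the 11 probes, with SDs of 0.093 to 0.24, against 0.049 to 0.16 in naive rats. The share of all probes with a larger SD in OUM rats is not given here, and the 11 probes vary together. The count is therefore a description and not a trait particular to these genes. OUM rat 1 was the highest OUM rat for all 11 probes, and naive rat 2 was the highest naive rat for 8. Spots of a probe on the same array had median SDs of 0.0096 to 0.084 log2 units, below the SD over all 10 rats for each of the 11 probes. The margin was small for *Uchl1*, with 0.084 over spots, against 0.12 over OUM rats, 0.083 over naive rats and 0.10 over all rats. On single arrays the SD over spots reached 0.24 for *Tubb3* and 0.16 for *Elavl4*, above their 0.15 and 0.14 over all rats. *Thy1*, *Uchl1* and the second *Stmn2* probe also exceeded theirs on single arrays, by less. Spots of 1 array share the RNA and its labelling, so their SD leaves out differences from those steps.

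**Figure D3:**
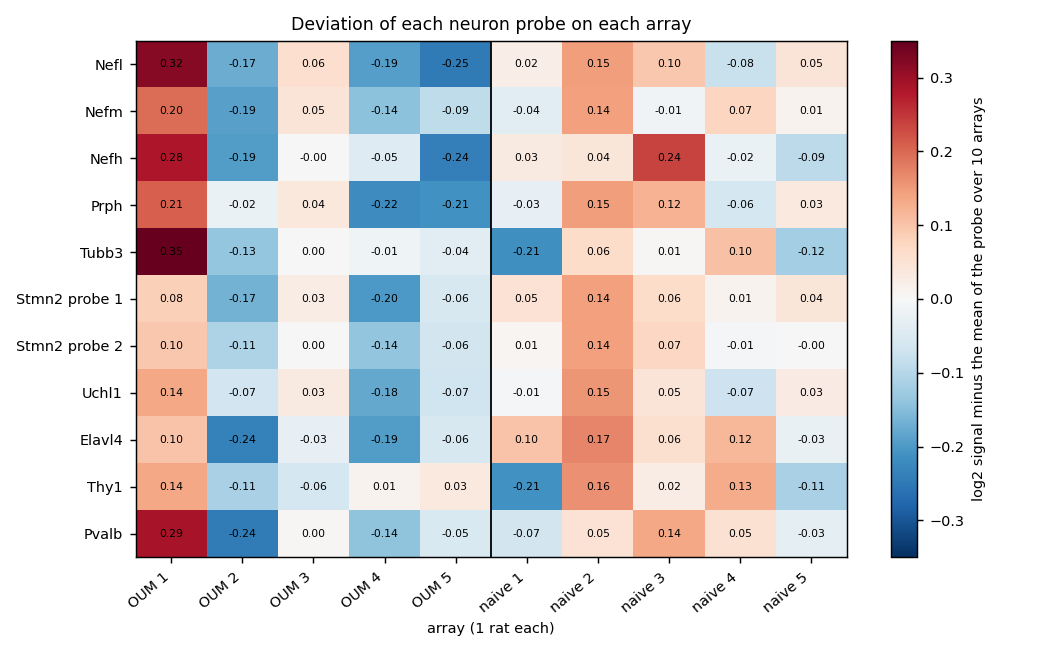
Log2 signal of each probe on each array minus the mean of that probe over the 10 arrays, with OUM rats on the left and naive rats on the right. The column of OUM rat 1 is positive for all 11 probes and that of OUM rat 2 is negative for all 11.

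The probes rose and fell together across rats. All 55 pairs correlated positively, with r of 0.26 to 0.95 and a median of 0.74, and 34 pairs passed an adjusted permutation p of 0.05 for Pearson's r, 28 of them for Spearman's rho as well. After leaving out the 2 arrays farthest from the median, r was 0.11 to 0.96 with a median of 0.67. The median was 0.81 within slide 1 and 0.75 with group means removed. *Nefl* and *Prph*, which mark different fibre classes, were among the closest pairs (r = 0.93, rho = 0.95, adjusted permutation p = 0.0028 and 0.0035). *Thy1* was the loosest over the 10 rats, and its r with *Prph* was 0.26. Within slide 1 the r of *Thy1* with *Prph* was 0.94, and its lowest r was 0.51, with *Elavl4*. For comparison, the median r of each probe with all 11525 genes detected on every array was 0.017 to 0.11, and with the 590 of them at least as bright as the dimmest of these probes other than *Thy1* it was 0.059 to 0.46.

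Summed macrophage markers moved the opposite way. The log2 of the summed linear signal of 10 macrophage genes was 4.01, 4.4, 4.18, 4.39 and 4.37 in OUM rats, against 4.26, 4.14, 4.15, 4.13 and 4.28 in naive rats. It did not separate the groups (two-sided exact permutation p = 0.33). The brightest genes weigh most in such a sum. OUM rat 1 had the lowest sum and OUM rats 2, 4 and 5 the highest. Correlation with the neuron probes was negative for 11 of 11, with r of -0.94 to -0.56, and 10 passed an adjusted permutation p of 0.05 over 99 relations for Pearson's r, of which *Nefm*, *Pvalb* and *Elavl4* also passed for rho. For *Nefm* r was -0.94 and rho -0.93 (adjusted permutation p = 0.0020 and 0.017), and r was -0.88 without the 2 farthest arrays, -0.92 within slide 1 and -0.93 with group means removed. For *Pvalb* r was -0.92, and -0.86 without the 2 farthest arrays.

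All 10 macrophage genes were detected on every array. Meninges and fibroblast markers also ran opposite to all 11 probes (r of -0.90 to -0.64, 6 past the adjusted permutation p), ranging from 6.78 to 7.37 in OUM rats and from 6.90 to 7.27 in naive rats. Satellite glia markers ranged from 7.19 to 7.33 in OUM rats and from 7.18 to 7.33 in naive rats, with 0 of 11 relations past the threshold. Summed pituitary markers ranged from 0.12 to 4.71 in OUM rats and from -1.47 to 4.43 in naive rats, with 0 of 11 relations past the threshold. Schwann cell and peripheral myelin markers (8.58 to 8.75 in OUM rats, 8.58 to 8.79 in naive rats) had 1 of 11 relations past the threshold, central myelin markers (2.90 to 3.70 in OUM rats, 2.31 to 3.41 in naive rats) had 2, T cell markers (-2.16 to -1.76 in OUM rats, -2.10 to -1.74 in naive rats) had 1, and blood markers (7.67 to 8.38 in OUM rats, 7.92 to 8.37 in naive rats) and skeletal muscle markers had 0. *Myh2* of muscle and *Cd2* and *Cd3e* of T cells were detected on no array. What part the mix of tissue in each ganglion sample has in the neuron signals was not tested.

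**Figure D4:**
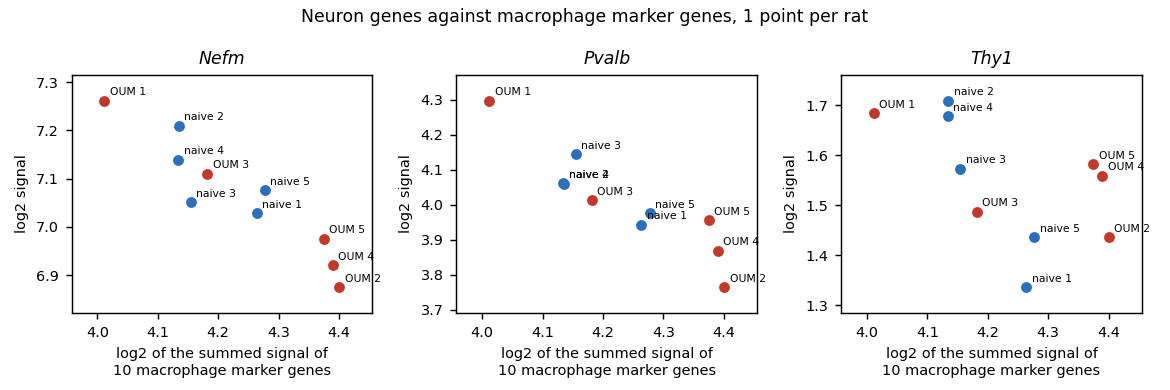
Log2 signal of *Nefm*, *Pvalb* and *Thy1* (vertical) against the log2 summed signal of 10 macrophage marker genes (horizontal), 1 point per rat, OUM red and naive blue. *Nefm* and *Pvalb* are highest in OUM rat 1, with the lowest macrophage sum, and lowest in OUM rat 2, with the highest (r = -0.94 and -0.92), and *Thy1* is more scattered (r = -0.56).

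Genes whose pattern over the 10 arrays was most like the mean of *Nefl*, *Nefm* and *Nefh* were *Wdr24* (r = 0.97), *Zfp622* (r = 0.96), *Tmem163* (r = 0.96), *Acadl* (r = 0.96) and *Rcan2* (r = 0.95). The least alike were *C1s* (r = -0.97), *Rmdn2* and *Casq1* (r = -0.95 each). These were ranked among 11525 genes that share the same arrays, so the values are a description.

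Related genes were followed as lists, by the probe with the highest signal. In limma, 0 of the listed genes passed the adjusted p, and at an unadjusted p under 0.05, 4.36% of 11988 genes with a symbol were higher in OUM rats and 4.47% lower. Of 24 other large-fibre markers, 0 were counted higher and 3 lower, with a median log2 fold change of -0.06, against -0.01 for all genes. They were the neurotrophin-3 receptor gene *Ntrk3* (-0.21, limma adjusted p = 0.40), the sodium channel gene *Scn1a* (-0.20, adjusted p = 0.49) and the potassium channel gene *Kcna2* (-0.13, adjusted p = 0.57), named after their values were seen. A second *Ntrk3* probe gave -0.02. Of 20 small-fibre markers, 0 were counted in either direction, with a median of 0.01.

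Among 18 other general neuron markers 0 were counted, with a median of -0.04. Of 20 genes of neurofilament phosphorylation, transport and turnover, 0 were counted higher and 1 lower, *Myo5a*, a myosin motor (-0.19, limma adjusted p = 0.55). For 24 other tubulins, stathmins and microtubule proteins it was 1 higher, *Map4* (0.14), and 1 lower, *Tubb2a* (-0.10). For 11 other intermediate filaments it was 2 higher, the glial filament gene *Gfap* (0.56, limma adjusted p = 0.53) and the muscle filament gene *Des* (0.21, adjusted p = 0.51), and 0 lower. Of 11 genes of the node of Ranvier and axonal membrane skeleton, 0 were counted. These 5 genes were also named after their values were seen.

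Axon injury genes had more counts than any other of these lists. Of 12 tested, 6 were counted higher and 0 lower at the unadjusted p, against 4.36% and 4.47% of all genes with a symbol. Their median was 0.13, against -0.01 for all genes. This list was chosen with earlier results of these data known, so the count is a description. *Atf3*, a transcription factor induced in neurons by axon injury, ranged from -0.79 to -0.38 in OUM rats, against -1.11 to -0.87 in naive rats, and *Csf1*, a macrophage growth factor, from -1.60 to -1.17 in OUM rats, against -1.90 to -1.64 in naive rats. They were named because neither overlapped between the groups, as for 0.993% of all genes in that direction and 1.03% in the lower one. Log2 fold changes were 0.46 (95% interval 0.27 to 0.64, limma adjusted p = 0.21) and 0.44 (95% interval 0.24 to 0.64, limma adjusted p = 0.27). Full separation fixes the exact permutation p of such a gene, so none is given for them.

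**Figure D5:**
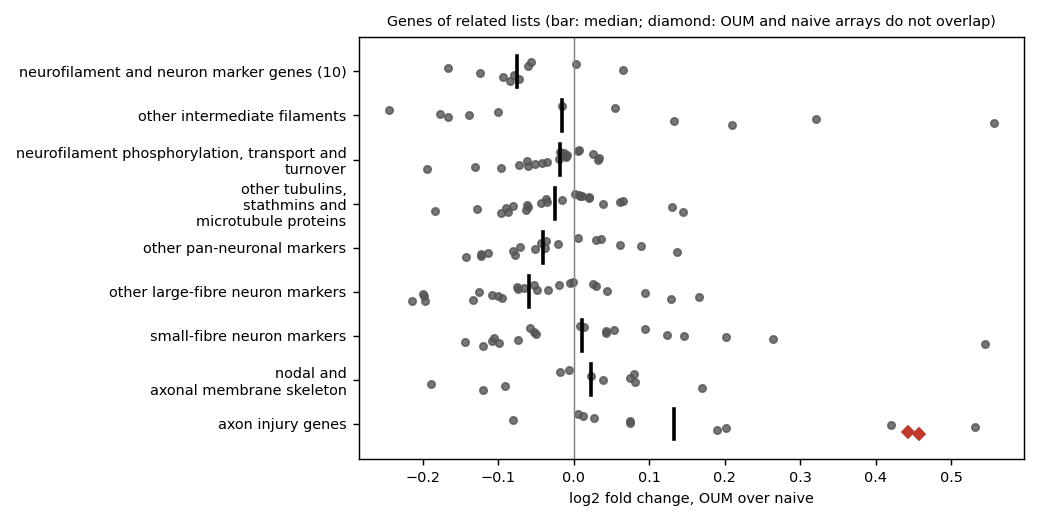
Log2 fold change, OUM over naive, of single genes in the neurofilament and neuron marker set and 8 related lists, with a bar at each median and red diamonds where OUM and naive arrays did not overlap. The diamonds are *Atf3* and *Csf1* among the axon injury genes, whose median is 0.13, and the 10 neuron genes lie between -0.17 and 0.07.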

How the data were processed

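TG RNA of 5 OUM and 5 naive rats was labelled with Cy3 and hybridised to Agilent arrays, 1 per rat. The authors quantified the scans with Agilent Feature Extraction 10.7.1.1, and the deposited processed signal is an intensity per spot after background subtraction. Their value table, normalized in GeneSpring, is on a linear scale and lies near that signal divided by a constant per array (median ratio 1902 to 2156). The log2 ratio was not exactly constant, with SDs over the probes of an array of 0.031 to 0.093.

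Control and outlier spots (267 to 334 per array) were dropped, the rest were averaged per probe, and from the log2 of that deposited intensity the log2 of the array's 75th percentile was subtracted. A first run took this percentile over probes, and it was changed to spots after those results had been seen. The value over spots is near the scanner software's own percentile, whereas the constant of the value table is near that over probes. Both are given for the unadjusted p of *Elavl4* and the split of all probes, and the other estimates use spots. With the percentile over probes, the median of the 11 probes was -0.06, against 0.0005 for all probes.

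Names came from a RefSeq table (GRCr8), which gave 18438 probes a symbol. The test, limma 3.58.1 on 21969 probes well above background on all arrays of either group, was run in R 4.3.3, two-sided, with Benjamini-Hochberg adjustment. Exact permutation tests covered all assignments of the arrays, and correlations used 100000 permutations (scipy 1.17.1). The fit was tested on simulated data, recovering 28% of probes changed 1.25-fold, 70% at 1.5-fold, 92% at 2-fold and 98% at 4-fold. It also called 10 of 21757 unchanged probes. Other genes were named where groups did not overlap (at most 2 per list) or by likeness to the triplet. Those named for an unadjusted p under 0.05 were picked after their values were seen. Genes and lists were chosen with earlier results of these data known. Protein sequences were not used here.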

Additional observations from a re-analysis of the deposited data

Results flagged for a closer look

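*Tubb3* in OUM rat 1 had a log2 signal of 5.07, against 4.58 to 4.72 in the other 4 OUM rats. The gap to the nearest rat was 0.717 of the range of the group, above Dixon's limit of 0.71 for 5 samples. It was the only such value among 22 groups of values looked at (11 probes in OUM and naive rats), and chance gives about 1 in 20. On OUM array 3, 1 of the 2 spots of this probe was kept. The cause was not tested.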

How the results depend on the processing

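In 29 alternatives, 0 of the 11 probes passed the adjusted p, and the smallest adjusted p was 0.28. The sign was kept in 306 of 317 values and turned in 11. *Thy1* turned to -0.014 with slide as a block, -0.11 in slide 2 alone, -0.056 without the 3 arrays with the most pituitary hormone signal (naive 1, OUM 1 and OUM 2), and negative without naive array 1 or 5 or OUM array 1 or 5 (from -0.049 to 0.044 over the arrays left out). *Tubb3* turned to -0.13 in slide 2 alone, -0.029 without the pituitary-rich arrays and -0.014 without OUM array 1 (from -0.014 to 0.11 over the arrays left out), and *Prph* to 0.0059 in slide 1 alone. The cause was not tested. Over all probes, 0 passed the adjusted p as reported (limma; unadjusted p under 0.05 for 828 higher and 1106 lower), while 4 passed with normexp background, 2 with detection on all 10 arrays, 2 with 1 probe per gene, 5 with slide as a block, 4 in slide 1 alone, 166 in slide 2 alone (3 arrays), 1 with an intensity trend and robust prior, and 0 to 1 when each array was left out. The methods' t-test gave 0 (689 higher and 1109 lower unadjusted). With the percentile over probes, chosen after seeing the data, 1024 were higher and 796 lower, and 0 of the 11 probes had an unadjusted p under 0.05, as also with quantile normalization (1015 higher, 818 lower), median scaling (1024 and 627), no scaling (1212 and 397) and the authors' value table (1050 and 772). The split of all probes thus depended on the scaling, while 9 of the 11 neuron probes stayed negative in each of these. The median of the 11 ran from -0.14 to -0.0095. With the replicate number as a block, 0 probes passed (758 higher and 839 lower unadjusted). Same-numbered deviations correlated at -0.08 to 0.31, which cannot show whether the numbers pair the rats. With 5 rats per group, the 95% interval of a neuron probe reached a median of 0.18 log2 units to each side.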
